A study of Mus musculus with 6 samples.

Results

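Complement and apoptotic cell clearance genes were measured in the brains of mouse embryos at stage E14.5, mid gestation. The 10 genes were chosen by name, with earlier results of these data known. They include the 3 chains of complement C1q (C1qa, C1qb and C1qc), complement C3 and the receptor C3ar1, and the signalling adaptor Tyrobp. The receptor kinases Mertk and Axl and their ligands Gas6 and Pros1 complete the list. The listed genes are 10 of 24848 genes in the deposited tables. All 10 were among the 15848 genes with enough reads to be tested. Poly(A) RNA was sequenced from 3 wild type (WT) and 3 E4f1 KO (KO) embryonic brains, 1 library each. E4f1 encodes a zinc finger protein that acts as a transcription factor and as a ubiquitin ligase for p53. The labels name no allele, no promoter or Cre, no strain, no sex and no litter, and they do not say whether every cell of a KO brain lacks E4f1. Nothing in them says that the embryos of a group came from separate litters, so the p-values measure only the spread between these 6 brains.

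C1q is the recognition unit of the classical complement pathway. In the brain it is made mainly by microglia and border macrophages, and it binds dying cells, debris and synapses. Downstream cleavage of C3 releases C3a, which signals through the C3a receptor encoded by C3ar1, and leaves C3 fragments on the target, which integrin receptors on microglia take up. The TAM receptors Tyro3, Axl and Mertk recognise apoptotic cells indirectly: Gas6 and protein S (Pros1) bridge them to phosphatidylserine on the dying cell. Tyrobp, also called DAP12, passes the signal of receptors such as Trem2 into the microglial cell. At this stage microglia clear many of the neural cells that die as the brain forms.

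The 3 C1q genes lie side by side on the minus strand of chromosome 4 (GRCm38): C1qb at chr4:136880126-136886200, C1qc at chr4:136889801-136892936 and C1qa at chr4:136895916-136898844. Each has 3 exons, the gaps between neighbours are 3600 and 2979 bases, and the cluster spans 18719 bases. C3ar1 is at chr6:122847140-122856157 and C3 at chr17:57203967-57228136. Tyrobp lies at chr7:30413782-30417582 and Axl, on the same chromosome, at chr7:25756500-25788924. Mertk is at chr2:128698915-128803162, Gas6 at chr8:13465374-13494535 and Pros1 at chr16:62854307-62929346. Exons of Gas6 overlap those of Tmem255b on the other strand, and Tmem255b had at most 0.123 CPM (counts scaled to library size) in any library. No other member shares exon bases with another gene in the annotation.

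Promoters are shown for C1qb and C1qc, neighbours whose levels ran in parallel over the libraries, and for C3ar1, the member with the clearest difference. RefSeq (GRCm38.p6) held promoters of 8 of the 10 members. Each sequence runs from 250 bases before the start site in the RefSeq promoter table to 50 bases after it, on the gene's strand, and capitals mark matches to any of 4 motifs. That start site is the outer end of the gene for C1qb and C3ar1, and lies 22 bases inside the gene for C1qc. The C1qb window is chr4:136886151-136886450, the C1qc window chr4:136892865-136893164 and the C3ar1 window chr6:122856108-122856407, all on the minus strand.
C1qb: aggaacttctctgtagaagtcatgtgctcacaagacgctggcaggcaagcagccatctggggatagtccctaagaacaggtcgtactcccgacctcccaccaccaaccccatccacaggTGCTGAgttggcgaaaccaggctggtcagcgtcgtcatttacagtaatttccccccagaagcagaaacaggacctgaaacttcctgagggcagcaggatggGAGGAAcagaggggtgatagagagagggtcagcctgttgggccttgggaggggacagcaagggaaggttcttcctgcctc
C1qc: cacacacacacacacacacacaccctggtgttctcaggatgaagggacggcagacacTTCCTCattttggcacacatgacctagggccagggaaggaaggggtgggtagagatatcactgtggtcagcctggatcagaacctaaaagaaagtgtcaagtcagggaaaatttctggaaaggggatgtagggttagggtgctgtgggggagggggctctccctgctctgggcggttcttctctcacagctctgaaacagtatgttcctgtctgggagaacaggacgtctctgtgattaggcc
C3ar1: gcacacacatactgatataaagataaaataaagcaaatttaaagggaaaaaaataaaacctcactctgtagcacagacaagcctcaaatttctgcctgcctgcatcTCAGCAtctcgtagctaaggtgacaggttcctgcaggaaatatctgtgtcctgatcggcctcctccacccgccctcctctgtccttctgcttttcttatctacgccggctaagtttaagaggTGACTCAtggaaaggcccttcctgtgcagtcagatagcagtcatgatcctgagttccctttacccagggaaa
The motifs were searched on both strands and were picked after the expression values were known. GAGGAA is the core of sites for ETS factors of the PU.1 type, PU.1 (Spi1) being a main transcription factor of microglia, and 3 of the 8 promoters held it, against 28.3% of 32851 promoters of the same length. In C1qb it begins 30 bases before that start site and in C1qc 193 bases before it. TGCTGA is the core of sites for MAF factors, held by 3 of the 8 promoters and 19.5% of all, with matches in C1qb, C3 and C3ar1. The AP-1 site TGANTCA, which can overlap the MAF core, was found in 1 of the 8, C3ar1, 22 bases before its start site, and in 7.81% of all promoters. The ATF4 site TGATGNAA was in 0 of the 8 and in 3.97% of all. These matches describe letters only.

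E4f1 itself checks the labels. It had 20.7, 21.6 and 21.5 CPM in the 3 WT brains and 7.12, 7.01 and 6.92 CPM in the 3 KO brains. The fold was 0.330, a log2 difference of -1.60 ± 0.08 (SE, n = 3 against 3), with an edgeR adjusted p of 0.00142. The libraries held 42113465 to 74064707 counts. They were not alike in meningeal transcripts. The 10 meningeal genes summed to 593, 2685 and 1089 CPM in WT 1 to WT 3. In KO 1 to KO 3 the sums were 473, 657 and 5275 CPM, so WT 2 and KO 3 stood apart. The midbrain genes En1, En2 and Pax5 summed to 3.07 to 69.9 CPM in the WT brains and 0.266 to 1.61 CPM in the KO brains. These midbrain sums did not overlap between the groups, and the source of the difference was not tested. WT 3 and KO 3 carry animal numbers far from those of the other 4.

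Most of these genes were read at higher levels in the KO brains, and 1 passed the test. C3ar1 was 2.52-fold higher, and it was the only member called by edgeR's quasi-likelihood test at an adjusted p below 0.05, against 0.511% of all tested genes called higher. No member was called lower, against 0.492% of all. Fold changes were positive for 9 of the 10, with a median log2 difference of 0.76, against 49.9% positive and a median of -0.000767 over all tested genes. In 8 of the 10 the lowest KO brain lay above the highest WT brain, a separation that 14.6% of all tested genes showed. At an unadjusted p below 0.05, 7 members were higher, against 10.3% of all genes, and 0 were lower, against 9.31%. These were the 3 C1q chains, C3ar1, Tyrobp, Axl and Pros1. DESeq2 called the same 7 higher, against 4.82% of all genes, and 0 lower, against 4.06%. Leaving out any 1 of the 6 libraries left no member called. The members were chosen with earlier results of these data known, so these shares describe them and are no test of the set.

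**Figure D1:**
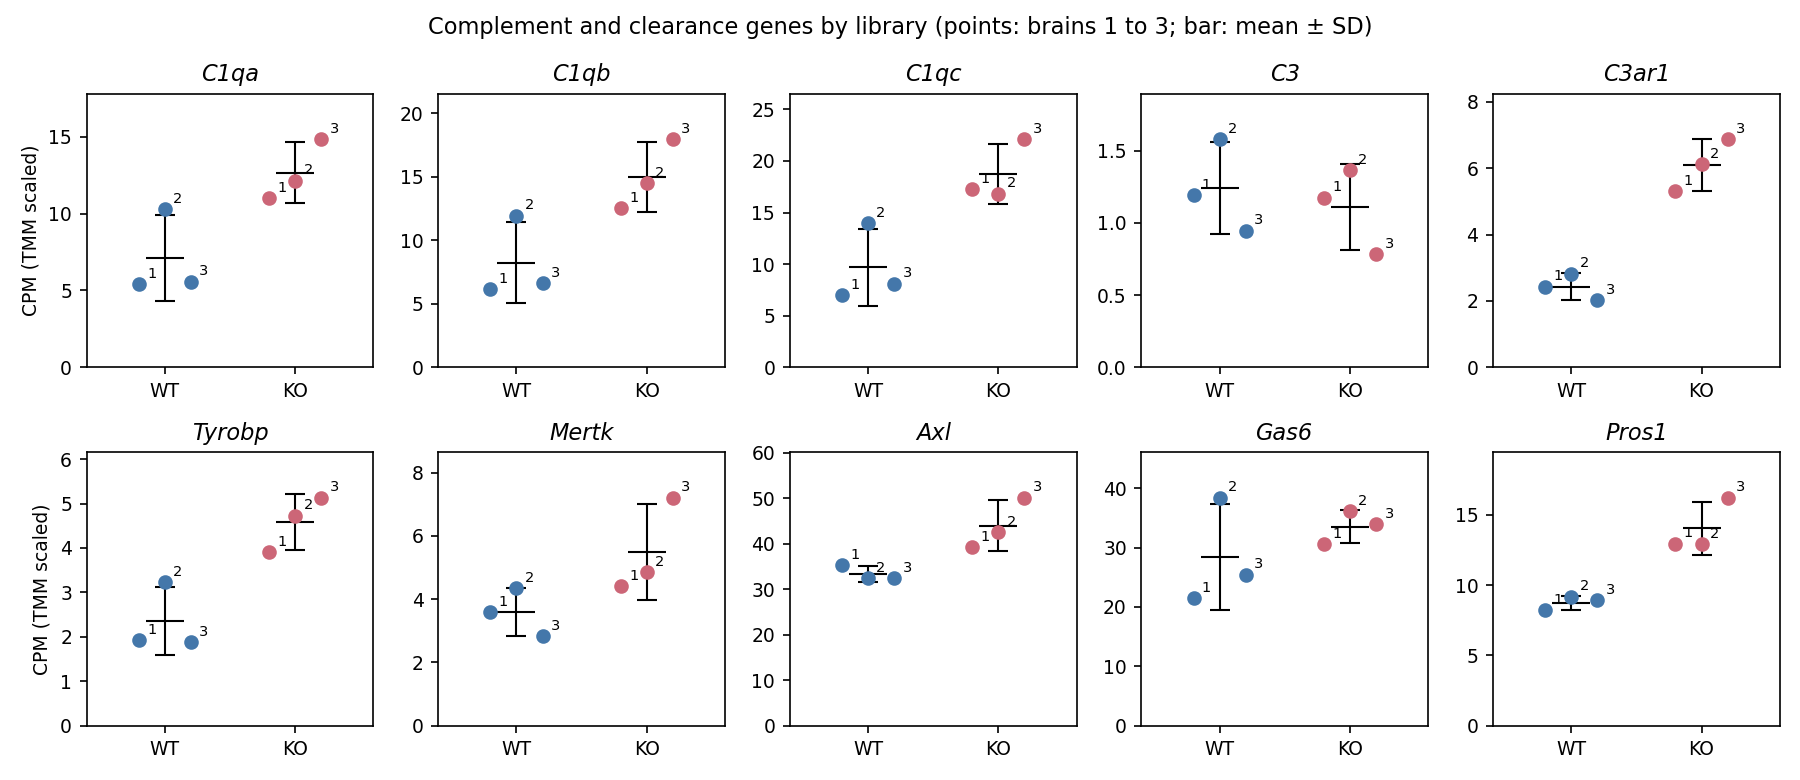
Level of each of the 10 genes in every library, in CPM on a linear axis from 0 that differs between genes, with WT and KO brains side by side and the library number beside each point; bars mark the mean ± SD of 3 libraries. The KO points lie above all WT points for every gene except C3 and Gas6, and WT 2 is the highest WT library for 9 of the 10.

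The C1q chains were read 1.79- to 1.94-fold higher in the KO brains, and none of the 3 passed the test. C1qa had 5.38, 10.3 and 5.56 CPM in WT 1 to WT 3 and 11.0, 12.1 and 14.8 CPM in KO 1 to KO 3. C1qb had 6.14, 11.9 and 6.62 CPM in the WT brains and 12.5, 14.47 and 17.9 CPM in the KO brains. C1qc had 6.98, 14.0 and 8.11 CPM in the WT brains and 17.3, 16.8 and 22.1 CPM in the KO brains. In all 3 genes WT 2 was the outlying WT library, and the lowest KO library exceeded it by 1.07-fold for C1qa and by 1.05-fold for C1qb. The log2 differences were 0.84 ± 0.29 for C1qa, 0.87 ± 0.29 for C1qb and 0.96 ± 0.28 for C1qc (SE). edgeR gave adjusted p-values of 0.194, 0.189 and 0.155, and the 95% interval of the C1qc difference ran from 0.28 to 1.63. Leaving out 1 library at a time gave log2 differences of 0.68 to 1.21 for C1qa, 0.70 to 1.23 for C1qb and 0.77 to 1.31 for C1qc, the lowest without WT 1 and the highest without WT 2. The edgeR adjusted p-values were 0.289, 0.280 and 0.231 without WT 1 and 0.0722, 0.0860 and 0.0609 without WT 2.

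The 3 chains, which assemble into a single protein complex, kept nearly one proportion in every brain. On the TPM scale, a level corrected for transcript length, the order was C1qc, C1qb, C1qa in all 6 libraries. The TPM ratio of C1qb to C1qa ran from 1.17 to 1.24 over the libraries, and that of C1qc to C1qa from 1.34 to 1.62, with the WT and KO values overlapping in both. Mean C1qc was 29.2 ± 11.3 TPM in the WT brains and 55.6 ± 8.02 TPM in the KO brains (SD, n = 3).

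C3 is the central component on which the complement pathways converge, and its values overlapped between the groups. It had 1.19, 1.58 and 0.947 CPM in the WT brains and 1.18, 1.37 and 0.784 CPM in the KO brains. The log2 difference was -0.15 ± 0.31 (95% interval -0.91 to 0.60, adjusted p = 0.811 by edgeR), on 40 to 89 counts per library. The sign turned without WT 2 (0.0501) and without KO 3 (0.0380).

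C3ar1, the receptor of the C3a fragment, had 2.43, 2.82 and 2.02 CPM in the WT brains and 5.30, 6.11 and 6.88 CPM in the KO brains. The lowest KO brain was 1.88-fold above the highest WT brain, the widest separation among the 10. The log2 difference was 1.33 ± 0.19 (SE, 95% interval 0.87 to 1.80), with an adjusted p of 0.0411 by edgeR and 6.32e-09 by DESeq2, from 116 to 379 counts per library. The difference stayed between 1.22 and 1.45 when any single library was left out, with edgeR adjusted p-values of 0.0703 to 0.157, so each of the 6 libraries was needed for the call. Within a library, C3ar1 exceeded C3 by 0.93 ± 0.11 log2 CPM in the WT brains and by 2.38 ± 0.52 in the KO brains (SD, n = 3), with no overlap. This contrast within the chosen genes is not corrected for transcript length and was given no test.

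**Figure D2:**
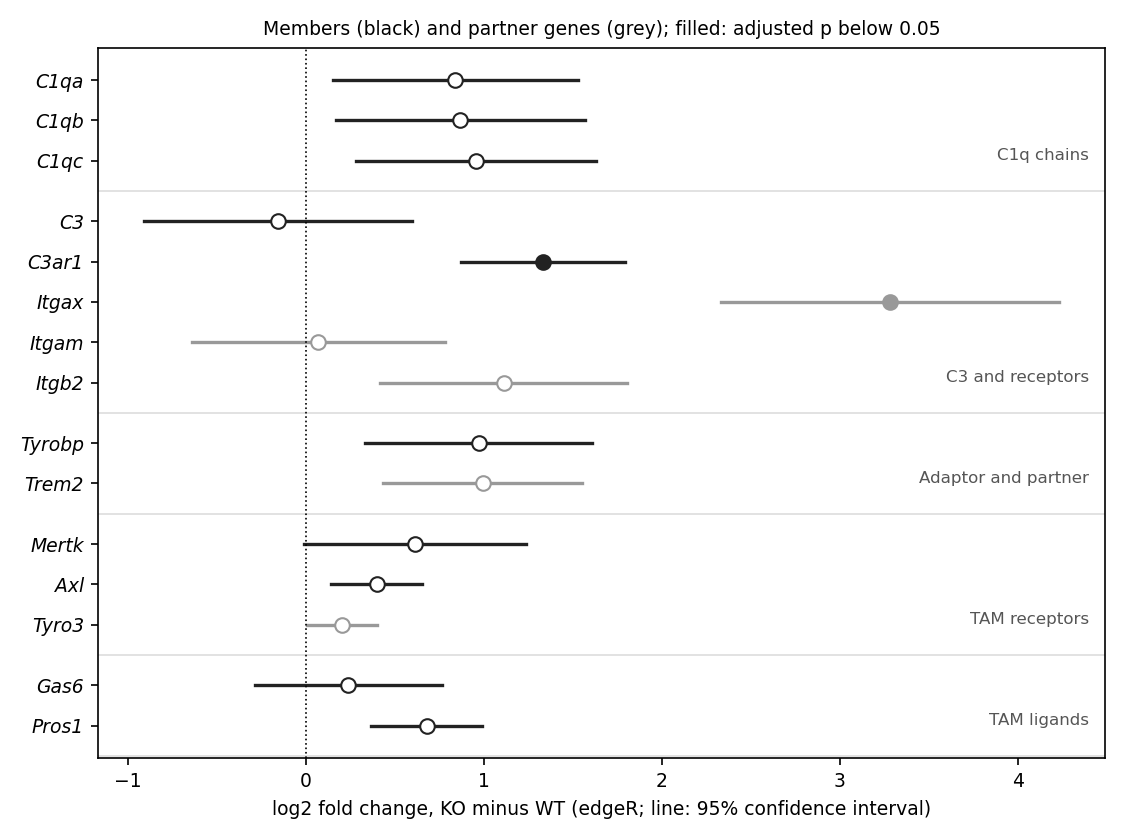
Log2 difference, KO minus WT, of each of the 10 genes (black) and of 5 partner genes (grey) with its 95% interval from the edgeR fit over all genes; the dotted line marks no difference and filled points an adjusted p below 0.05. C3ar1, at 1.33, is the only member with a filled point, Itgax lies farthest right at 3.28, and the intervals of C3, Mertk and Gas6 include 0.

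Integrin chains that form the receptors for C3 fragments differed from each other. Itgax, whose product is the alpha chain of complement receptor 4 and which marks phagocytic microglial states, had 0.121, 0.146 and 0.256 CPM in the WT brains and 1.58, 2.26 and 1.33 CPM in the KO brains. This was a log2 difference of 3.28 ± 0.39 (adjusted p = 0.0221 by edgeR), on 6 to 17 counts in the WT and 68 to 129 in the KO libraries. The call was lost in 5 of the 6 fits that left out 1 library (adjusted p of 0.0497 to 0.133 over the 6), with differences of 3.04 to 3.69. Itgam, the alpha chain of complement receptor 3, had 1.87, 4.04 and 2.66 CPM against 2.78, 3.12 and 3.06 CPM, and the groups overlapped (log2 0.07 ± 0.29, adjusted p = 0.913 by edgeR). Itgb2, the beta chain that both share, had 0.577, 1.09 and 0.797 CPM against 1.59, 1.75 and 1.96 CPM, with no overlap and an edgeR adjusted p of 0.131. Itgam and Itgb2 were named after their values were seen, to complete the 2 receptors.

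Tyrobp had 1.93, 3.24 and 1.88 CPM in the WT brains and 3.90, 4.73 and 5.13 CPM in the KO brains. The groups did not overlap, and WT 2 was again the highest WT library. The log2 difference was 0.97 ± 0.26 (SE), with an adjusted p of 0.140 by edgeR and 0.00887 by DESeq2. Trem2, the lipid-sensing receptor that signals through Tyrobp, had 1.07, 1.46 and 1.55 CPM against 2.27, 3.07 and 2.80 CPM, 1.99-fold higher with an edgeR adjusted p of 0.111. Tyrobp exceeded Trem2 by 0.72 ± 0.42 log2 CPM in the WT and 0.74 ± 0.12 in the KO brains (SD, n = 3). CPM are not corrected for transcript length. On the TPM scale Tyrobp had 16.9 ± 5.44 and Trem2 3.92 ± 0.72 in the WT brains. In the KO brains they had 32.9 ± 4.45 and 7.65 ± 1.13 TPM.

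The TAM receptors had smaller differences. Axl, which binds Gas6 and is found on vascular and glial cells as well as on macrophages, had 35.3, 32.4 and 32.4 CPM in the WT brains and 39.2, 42.6 and 50.2 CPM in the KO brains, with no overlap. Its log2 difference was 0.40 ± 0.11 (SE), with an adjusted p of 0.135 by edgeR and 0.0240 by DESeq2. Mertk, which binds both ligands and is the TAM receptor most tied to microglial engulfment, had 3.58, 4.35 and 2.83 CPM against 4.41, 4.85 and 7.21 CPM. Here the groups only just failed to touch. The log2 difference of Mertk was 0.61 ± 0.26 (95% interval -0.01 to 1.24, adjusted p = 0.258 by edgeR), and it ran from 0.37 without KO 3, a library also high in meningeal transcripts, to 0.77 without WT 2. Tyro3, the neuronal TAM receptor, had 48.5, 48.5 and 44.1 CPM against 53.2, 58.9 and 50.5 CPM, a log2 difference of 0.20 ± 0.08 with an edgeR adjusted p of 0.245. Per length, Axl was 6.14 to 10.2 times as abundant as Mertk over the 6 libraries, and Tyro3 1.28 to 1.90 times as abundant as Axl, so Mertk was the least abundant of the 3 TAM receptors in every brain.

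The ligands gave different pictures. Pros1, the gene of protein S, had 8.20, 9.17 and 8.90 CPM in the WT brains and 12.9, 12.9 and 16.2 CPM in the KO brains. All 3 KO brains were above all WT brains by at least 1.41-fold, and the WT libraries lay close together. The log2 difference was 0.68 ± 0.13 (SE, 95% interval 0.37 to 0.99), with an adjusted p of 0.0721 by edgeR, just short of the threshold, and 1.76e-04 by DESeq2. Gas6 had 21.4, 38.4 and 25.4 CPM against 30.5, 36.2 and 33.9 CPM, and WT 2 was above every KO brain. The log2 difference of Gas6 was 0.24 ± 0.22 (95% interval -0.29 to 0.77, adjusted p = 0.568 by edgeR), 0.07 ± 0.19 without WT 1 (adjusted p = 0.854) and 0.52 ± 0.12 without WT 2 (adjusted p = 0.152). Per length, Gas6 was 2.71 to 5.43 times as abundant as Pros1 over the libraries.

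Mean TPM placed the 10 genes over a wide range. In the WT brains the order was Gas6 (30.2 ± 9.50), C1qc (29.2 ± 11.3), C1qb (24.5 ± 9.58), C1qa (20.7 ± 8.16), Axl (17.6 ± 0.878) and Tyrobp (16.9 ± 5.44), whose neighbours did not differ beyond their SD (n = 3). Pros1 followed at 7.16 ± 0.417, then Mertk at 2.13 ± 0.465, C3ar1 at 1.497 ± 0.255 and C3 at 0.633 ± 0.166. In the KO brains the C1q chains came first, C1qc at 55.6 ± 8.02, C1qb at 44.0 ± 7.53 and C1qa at 36.4 ± 5.24, and Gas6 was the fourth at 35.0 ± 2.80. Tyrobp (32.9 ± 4.45) came before Axl (22.6 ± 2.54), and C3ar1 (3.69 ± 0.421) before Mertk (3.20 ± 0.823), which it had followed in the WT brains. In the KO brains C1qa, Gas6 and Tyrobp did not differ beyond their SD, nor did C3ar1 and Mertk. These SD are between libraries, and within every library of both groups the order C1qc, C1qb, C1qa held. C3 was last in both groups.

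Other complement genes had medians nearer 0 than the members. Of 20 further complement components 12 could be tested and none was called, with a median log2 difference of 0.37, and C9 and Cfd were at 0 in every library. At an unadjusted p below 0.05, 1 of these 12 was higher, and DESeq2 called none. C1ra and C1s1, the proteases that C1q activates, differed by log2 0.84 ± 0.45 and 0.54 ± 0.45 (edgeR adjusted p = 0.345 and 0.531), and the groups overlapped in both. C4b, the next substrate, had at most 0.462 CPM and was not tested. C4a, a gene of near-identical sequence, differed by -0.35 ± 0.20 (edgeR adjusted p = 0.375). The deposited counts of C4a and C4b were whole numbers in every library. Of 20 complement receptors and regulators 18 were tested, with a median of 0.03, and edgeR called Itgax higher and none lower. At an unadjusted p below 0.05, 4 of the 18 were higher and 0 lower, and DESeq2 called 3 higher and 0 lower.

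Recognition and engulfment genes were counted next, to be read against 10.3% of all tested genes higher at an unadjusted p below 0.05 and 4.82% called higher by DESeq2. Of 24 further apoptotic cell receptors and bridging molecules 21 were tested, with a median log2 difference of 0.12 and no call by edgeR. At an unadjusted p below 0.05, 6 of the 21 were higher, and DESeq2 called 4 higher. All 24 engulfment, find-me and eat-me genes were tested, with a median of 0.05 and no call by edgeR. Of these 3 were higher and 1 lower at an unadjusted p below 0.05, and DESeq2 called 2 higher and 1 lower. Among 18 partners and signalling genes of Tyrobp, 11 were tested and 10 had positive differences, with a median of 0.56. None of these 11 was called by edgeR, 5 were higher at an unadjusted p below 0.05, and DESeq2 called 3. The lists share genes: Trem2 is also counted among the apoptotic cell receptors and Itgb2 among the complement receptors. Csf1r and Siglech, and the engulfment gene P2ry12, are also counted among the resident microglia genes below. Stab1, an apoptotic cell receptor, is also counted among the border macrophage genes, and the complement regulator Vtn among the pericyte genes. The 21 genes of the cell death machinery had a median of -0.01, and Ddit3, a stress-induced transcription factor that promotes apoptosis, was the only one called by edgeR. At an unadjusted p below 0.05, 6 of the 21 were higher and 2 lower, and DESeq2 called 4 higher and 0 lower. Ddit3 had 6.22, 6.20 and 6.44 CPM in the WT and 16.2, 13.9 and 13.6 CPM in the KO brains, a log2 difference of 1.22 ± 0.11 (edgeR adjusted p = 0.00751), and the call was lost without WT 3 (0.0558) and without KO 1 (0.0700).

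Microglial genes had differences of a similar size to the members. All 16 resident microglia genes had positive differences, with a median log2 difference of 0.69 against 0.76 for the 10 members, and Cx3cr1 and Fcrls were called higher. In 11 of the 16 the lowest KO brain lay above the highest WT brain, against 14.6% of all tested genes. Tmem119 was not among these 11, with 2.81, 8.93 and 4.12 CPM in the WT and 2.01, 1.94 and 19.6 CPM in the KO brains. Its positive difference (log2 0.58 ± 0.99, edgeR adjusted p = 0.772) thus rested on KO 3. At an unadjusted p below 0.05, 10 of the 16 were higher, and DESeq2 called 8. Cx3cr1, the microglial fractalkine receptor, had 9.84, 13.1 and 12.1 CPM in the WT and 21.0, 23.5 and 26.8 CPM in the KO brains (log2 1.03 ± 0.15, edgeR adjusted p = 0.0395). Fcrls differed by 0.91 ± 0.12 (edgeR adjusted p = 0.0369). Csf1r, the growth factor receptor that microglia need to survive, differed by 0.56 ± 0.20 (adjusted p = 0.208) and P2ry12, the purinergic receptor of homeostatic microglia, by 0.34 ± 0.32 (adjusted p = 0.588), both by edgeR. No edgeR call for Cx3cr1 or Fcrls remained when any single library was left out, with adjusted p-values of 0.0694 to 0.163. In bulk brain, more cells of a type and more RNA per cell cannot be told apart.

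**Figure D3:**
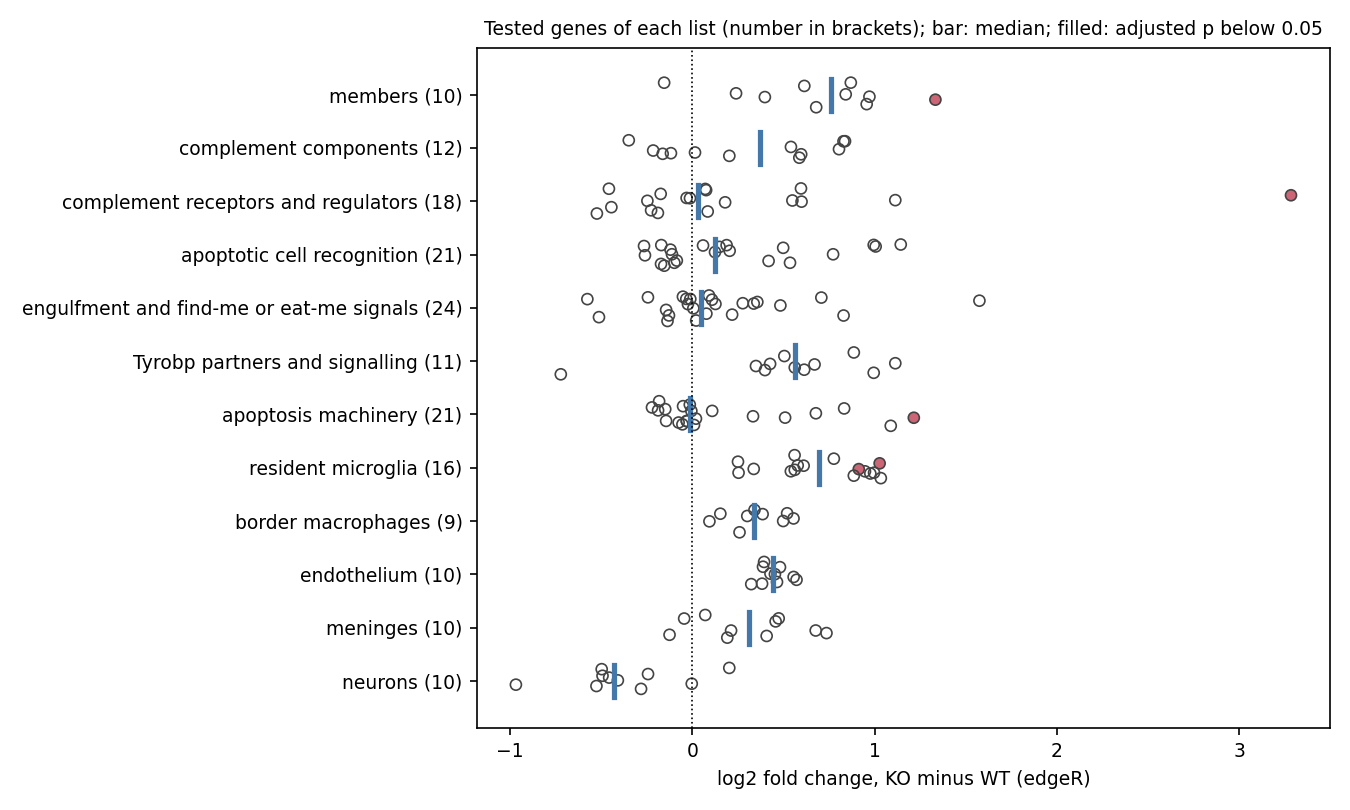
Median log2 difference, KO minus WT, of 12 of the gene lists as bars, with every tested gene of a list as a point, filled where its adjusted p is below 0.05. The 10 members (0.76) and the resident microglia list (0.69) lie farthest right, and the neuronal list (-0.43) to the left. Tyrobp partners (0.56), endothelium (0.44), complement components (0.37), border macrophages (0.34) and meninges (0.31) also lie to the right. The monocyte and granulocyte list (0.72, 3 tested genes) is not plotted.

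Markers of other cells were read in the same libraries. The 16 microglia genes summed to 190 to 200 CPM in the WT and 234 to 343 CPM in the KO brains, a sum led by Sall1 (69.5 to 114 CPM against 89.0 to 135 CPM), which neural progenitors also express. Border macrophage genes summed to 92.3 to 166 CPM against 114 to 256 CPM, with 9 of 9 tested genes positive, a median of 0.34 and none at an unadjusted p below 0.05. Their highest library in each group was WT 2 and KO 3, the same that led the meningeal genes (median 0.31, 8 of 10 positive) and that were highest in their groups for 9 and 8 of the 10 members. Endothelial genes summed to 254 to 301 CPM against 330 to 459 CPM, all 10 positive with a median of 0.44, none called by edgeR, 7 higher at an unadjusted p below 0.05 and 4 called by DESeq2. Pericyte genes summed to 311 to 367 CPM against 347 to 441 CPM, with a median of 0.19. Monocyte and granulocyte genes summed to 2.45 to 3.29 CPM against 2.81 to 3.27 CPM, with Prtn3 at 1.76 to 2.56 CPM against 1.70 to 2.44 CPM. Of these 10 genes 3 were tested, with a median log2 difference of 0.72 and none at an unadjusted p below 0.05. No gene of the list was at 0 in all libraries, and Ly6c2, at 0.015 CPM in WT 3, was at 0 in the other 5. The 10 liver genes include Serpina1a and Fgb, both at 0 in all libraries, and Alb, at most 0.0243 CPM. Liver genes summed to 310 to 386 CPM against 187 to 366 CPM, of which Ttr, a choroid plexus gene too, had 295 to 371 CPM against 160 to 346 CPM. Choroid plexus genes had a median of -0.32, radial glia genes 0.08, erythroid genes 0.21 and the 3 midbrain genes -5.21, with no call by edgeR. All 3 midbrain genes were lower at an unadjusted p below 0.05 and were called by DESeq2. Neuronal genes summed to 7314 to 8627 CPM against 5419 to 6561 CPM, with a median of -0.43, no call by edgeR, 5 lower at an unadjusted p below 0.05 and 3 called lower by DESeq2. The part of these cell types in the members' differences was not tested.

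The 16 microglia genes were themselves higher in the KO brains, by a mean log2 of 0.63. Scaling each member to them in its own library therefore lowered every KO minus WT difference by that amount. The mean log2 CPM of the 16 microglia genes was 2.22 ± 0.22 in the WT and 2.85 ± 0.38 in the KO brains (SD, n = 3). The C1q mean stood 0.78 ± 0.35 above it in the WT and 1.08 ± 0.16 above it in the KO brains, and the groups overlapped. C3ar1 stood at -0.89 ± 0.26 in the WT and -0.23 ± 0.24 in the KO brains, the only member of which the scaled groups did not overlap. Tyrobp, Mertk, Axl, Gas6, Pros1 and C3 overlapped between the groups. The scaled mean differences were positive for C3ar1 (0.67), Tyrobp (0.34), the C1q mean (0.30) and Pros1 (0.03). They were negative for Mertk (-0.05), Axl (-0.24), Gas6 (-0.36) and C3 (-0.79). Sall1, Tmem119 and Olfml3 were then left out of the microglia list, a choice made after their values were seen. Tmem119 and Olfml3 were highest in the WT 2 and KO 3 libraries, while Sall1 was lowest in WT 2 (69.5 CPM). This does not set them apart from all kept genes, since Csf1r, Cx3cr1 and Fcrls were also highest in WT 2 and KO 3. The mean log2 CPM of the other 13 genes was still highest in these libraries of each group, at 1.96 in WT 2 and 2.82 in KO 3. With the other 13 genes C3ar1 again stood higher in the KO brains without overlap (-0.49 ± 0.25 against 0.08 ± 0.10), while C3, Axl and Gas6 stood lower without overlap. These ratios are descriptions with no test.

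**Figure D4:**
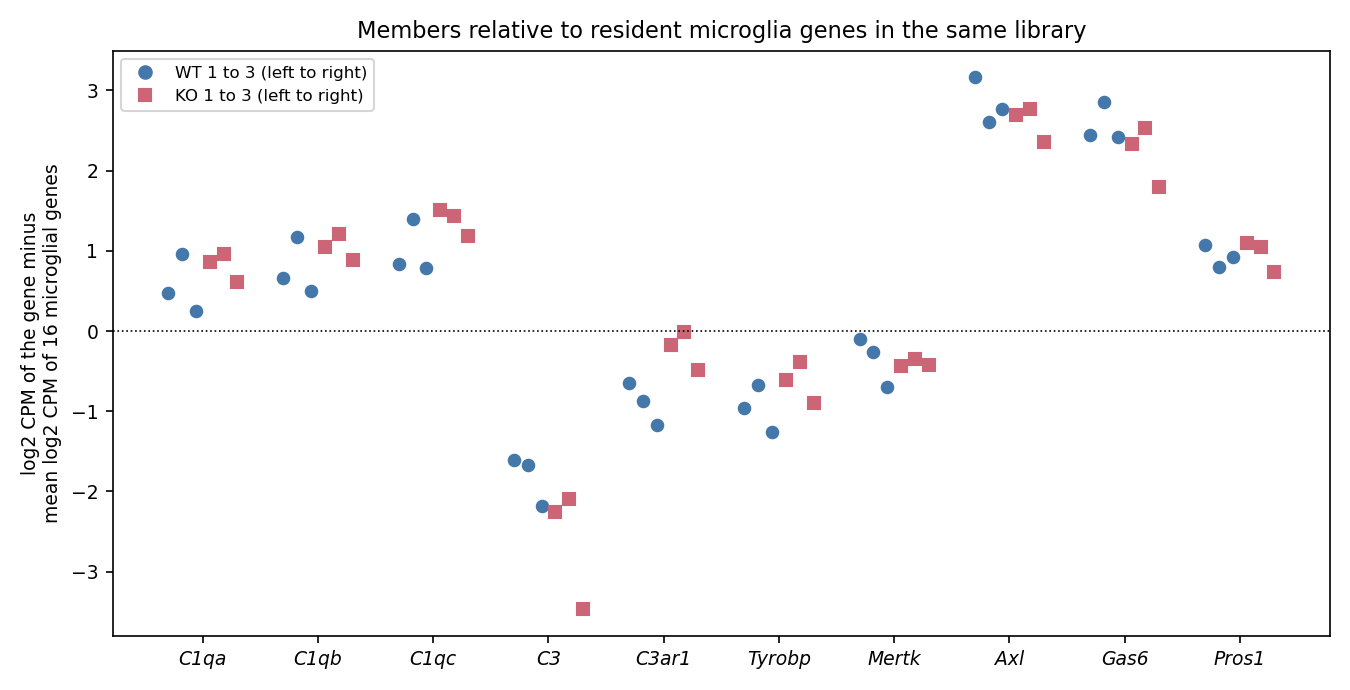
Log2 CPM of each of the 10 genes minus the mean log2 CPM of 16 resident microglia genes of the same library, for WT and KO brains. C3ar1 is the only gene whose KO points all lie above its WT points.

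The members were also compared with each other and with other genes by the shape of their levels over the 6 libraries. The measure was the root mean square difference of log2 CPM centred on each gene. The most alike pair was C1qa and C1qb at 0.0332, followed by C1qb with C1qc at 0.0899 and C1qa with C1qc at 0.0915. Tyrobp followed C1qa nearly as closely, at 0.0916. C3 and C3ar1 were the least alike pair, at 0.790. The search for like genes covered 13274 tested non-members whose mean reached 1 CPM. Predicted gene models (Gm or Rik names) and pseudogenes were left out of it. Among the 13274, the 6 closest to the C1q mean were Tifab (0.111), Ephx1 (0.114), Cdk18 (0.121), Ncf1 (0.125), Lyz2 (0.135) and Cd86 (0.139). Ncf1 encodes a subunit of the phagocyte NADPH oxidase, Lyz2 a macrophage lysozyme and Cd86 a costimulatory protein of antigen-presenting cells. These descriptions leave out Tifab, Ephx1 and Cdk18, which lay closer to the C1q mean. None of the 6 was called by edgeR, and since the members share the same 6 libraries the measure is a description.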

How the data were processed

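Messenger RNA of 3 WT and 3 KO brains was sequenced as paired reads from stranded libraries, per the labels. RSEM 1.2.28, STAR 2.5.3a, Trimmomatic and FastQC are listed, with the builds mm10 and GRCm38, in the submitters' processing notes, and the strand setting of the counting is not given in the sources used here. The authors deposited expected counts from RSEM, which share out reads that fit several genes, and TPM values, which are scaled to transcript length. Before testing, each was rounded to the nearest whole number; 98.9% to 99.0% of them lay within 0.005 of one as deposited, as were all counts of the 10 members. Libraries of 1 group differed beyond sampling noise (chi-square per degree of freedom of at least 45.1), so none was merged. Genes were filtered with filterByExpr, scaled by TMM and tested by the two-sided quasi-likelihood test of edgeR 4.0.16 (R 4.3.3) on genotype alone, with Benjamini-Hochberg adjustment over all 15848 tested genes and a threshold of 0.05. The tests were tried on simulated data first. The SE is the log2 difference over the root of F. CPM are after TMM, with 0.1 added before logs. DESeq2 1.42.0 and limma 3.58.1 served as alternatives, with other scalings, filters, pseudocounts (1 and 0.1) and libraries, and a midbrain covariate. The members, the 19 lists and the alternatives were chosen with earlier results of these data known. One more alternative and the shortened microglia list were added after the values were seen. Named were the members, E4f1, up to 4 called genes of each list by fold change, the genes that complete a role (Tyro3, C1ra, C1s1, C4b, Trem2, Csf1r, Cx3cr1, P2ry12) and the 6 genes most like C1q; C4a, Itgam, Itgb2 and single marker genes were named after their values were seen. FPKM and values per isoform were not used here.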

Additional observations from a re-analysis of the deposited data

How the results depend on the processing

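C3ar1 and the other members except C3 had positive differences in all 21 alternatives, and E4f1 was lower in all 21. C3 turned positive with a midbrain score as covariate (0.34), without WT replicate 2 (0.0501), without KO replicate 3 (0.0380) and on WT 1, WT 3, KO 1 and KO 2 alone (0.23), the set chosen after seeing the data; leaving out 1 replicate gave it -0.33 to 0.05. C3ar1 was called in 10 of the 21, with a log2 difference of 0.91 to 1.73 and adjusted p-values of up to 0.740. Of all genes, the reported test called 159 and 1 member. DESeq2 called 1437 genes and 7 members, limma on log2(TPM + 1) 247 genes and on log2(TPM + 0.1) 241 genes, with C3 below the filter in both. Without a filter, limma on log2(TPM + 1) called 0 members (C3ar1 adjusted p = 0.0564). Leaving out 1 replicate gave 36 to 82 genes, the lowest without KO 1, and 0 members each time. WT 1, WT 3, KO 1 and KO 2 alone gave 62 genes and 0 members (C3ar1 1.35 ± 0.19, adjusted p = 0.0881). WT 1, WT 2, KO 1 and KO 2 alone, with animal numbers close together, gave 0 genes and 0 members by edgeR, with 1546 genes at an unadjusted p below 0.05. On these 4 libraries the members' median log2 difference was 0.58, against 0.76 as reported. By edgeR, 2 members had an unadjusted p below 0.05, against 7 as reported. C3ar1 differed by 1.13 ± 0.21 (edgeR adjusted p = 0.326) and Mertk by 0.23 ± 0.21 (edgeR adjusted p = 0.731). The midbrain covariate gave 0 genes and 0 members, with 802 at an unadjusted p below 0.05. Its score was -0.06 to 4.13 in the WT and -2.41 to -0.99 in the KO brains, without overlap. This fit could therefore not separate genotype well from the score, and E4f1 lost its call in it too (edgeR adjusted p = 0.180). Itgax was called in 10 of 19 alternatives, Ddit3 in 15 of 21, Cx3cr1 in 10 of 21 and Fcrls in 11 of 21, all positive throughout. Library totals in place of TMM called 123 genes higher and 63 lower, against 81 and 78 as reported. Correlations of same-numbered brains' deviations were 0.131, 0.174 and 0.00121. WT 1 correlated best with KO 1 and WT 2 with KO 2, while WT 3 correlated best with KO 1 (0.104). The labels do not say that the numbers pair brains, so they were not taken to pair samples. The replicate block called 66 genes and 0 members (C3ar1 adjusted p = 0.0815). Depth limits genes with few counts, such as C3 (40 to 89 per library) and Itgax in the WT libraries (6 to 17).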
